A study of Mus musculus with 6 samples.

Results

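The untreated endometriosis-like lesion was described from the 3 vehicle libraries of a mouse RNA-seq series of 6 libraries. They were chosen by their labelled treatment alone, and all 41786 counted gene symbols were used, of which 27993 had at least 1 count. Donors of the uterine grafts were B6-GFP positive females aged 6 weeks. Recipients were wild type C57BL/6 females aged 8 weeks, matched for estrous cycle stage, and each graft was sutured onto the peritoneum of the body wall. After 3 days the recipients received vehicle, of unstated composition, daily for 3 weeks as labelled, although the labels also put necropsy, in diestrus, at 3 weeks from implantation. At necropsy the uterine-derived tissue was dissected away from recipient tissue. Vehicle 1 is a pool of RNA from 4 mice, made owing to the amount of RNA obtained, and its labelled body weight is a mean. Vehicle 2 and vehicle 3 came from 1 mouse each. The 3 niclosamide libraries, from recipients dosed with 200 mg/kg per day, entered an added estimate of the spread and no comparison. The counted symbols do not include the GFP transgene, so donor uterus and recipient tissue are not separated in these values.

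In endometriosis, endometrium-like tissue grows outside the uterine cavity, most often on the peritoneum. The endometrium consists of a luminal epithelium and its glands, a hormone-responsive stroma, vessels and immune cells, and in rodents a full-thickness uterine graft also carries the smooth muscle of the myometrium. Estrogen acts through the nuclear receptors Esr1 and Esr2 and drives epithelial growth and secretion, while progesterone acts through Pgr and restrains that growth. A graft on the body wall meets mesothelium, which lines the peritoneal cavity, resident peritoneal macrophages, fat and the skeletal muscle beneath.

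Library totals were 27797121 counts for vehicle 1, 34797000 for vehicle 2 and 31061717 for vehicle 3. Levels are given as TPM, counts divided by the deposited summed exon length of each symbol and scaled to a common library sum, and a series of 3 values always runs from vehicle 1 to vehicle 3. Log2 differences and 2-fold limits between libraries are on counts per library size (CPM), scaled by TMM. A ratio of printed TPM can therefore differ from them. Means carry the SD over the 3 libraries (n = 3), and a gene was called detected at 1 TPM or more in all 3. Xist, the RNA of the inactive X chromosome, stood at 66.6, 193 and 145 TPM, whereas Kdm5d, Uty and Eif2s3y on the Y chromosome had no count in any library, and the labels give all mice as female. Spearman correlations of log2 CPM over genes were 0.974 between vehicle 1 and 2, 0.978 between vehicle 1 and 3, and 0.986 between vehicle 2 and 3.

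The pooled library stood somewhat apart from the single-animal libraries. Of 16388 genes tested, 254 (1.55%) lay at least 2-fold above both others in vehicle 1 and 364 (2.22%) at least 2-fold below. In vehicle 2 the counts were 106 (0.647%) above and 198 (1.21%) below, and in vehicle 3 they were 103 (0.629%) above and 55 (0.336%) below. By pairs, 1345 genes (8.21%) were at least 2-fold apart between vehicle 1 and 2, 1108 (6.76%) between vehicle 1 and 3, and 652 (3.98%) between vehicle 2 and 3. At any distance, vehicle 1 lay above both others at 36.8% of the genes and below both at 38.9%. When vehicle 1 was tested against vehicle 2 and 3 with edgeR's quasi-likelihood test, 0 genes (0%) passed an adjusted p of 0.05. The lowest adjusted p was 0.179, and 2176 genes (13.3%) had an unadjusted p under 0.05. DESeq2 called 391 genes on the same table and limma-voom called 0. The test has 1 residual degree of freedom and assumes that the lone pooled library varies like the other libraries, so differences from the pool are given below as values that did not pass it.

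**Figure D1:**
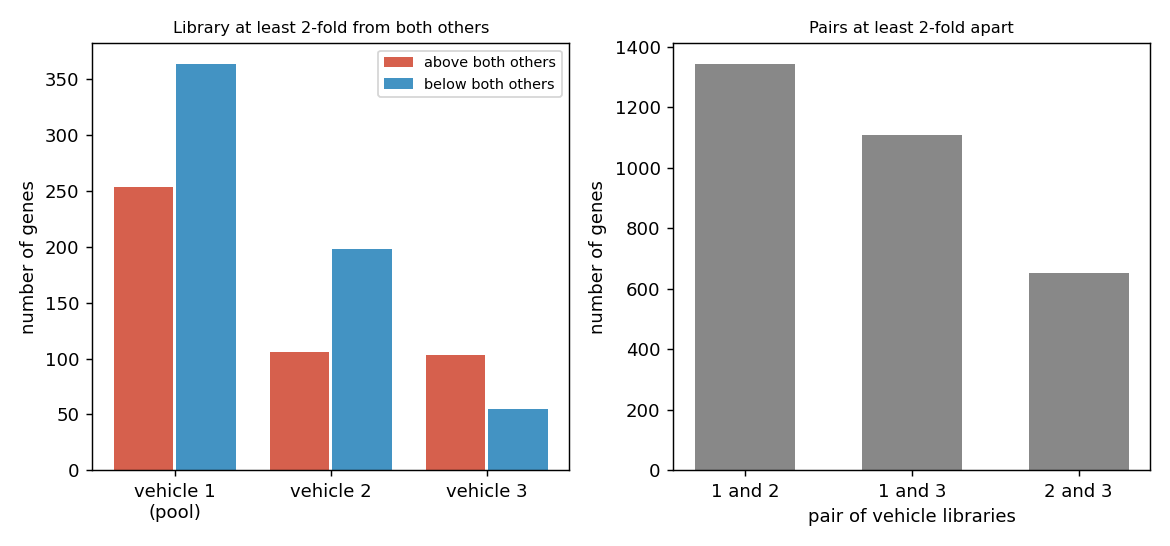
Number of genes, of 16388 tested, at which 1 vehicle library lay at least 2-fold above or below both others (left), and at which a pair of libraries lay at least 2-fold apart (right). Bars are counts of genes without error. The pooled vehicle 1 has 254 genes above and 364 below, more than either single-animal library.

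The differences from the pool also varied with gene length. The median log2 difference, vehicle 1 minus vehicle 2 and 3, was 0.14 over 1170 genes with up to 1000 bases of exon and −0.28 over 493 genes with more than 12000 bases. It was −0.20 over 1224 genes of 8000 to 12000 bases. Between vehicle 2 and 3 the same medians ran from −0.15 for the shortest class to 0.10 for the longest, so vehicle 2 leaned towards long genes and the pool towards short ones. The part of this length dependence in the individual differences below was not tested. Its size is taken up again only for Esr1, Pgr and the medians of some lists. Other long genes, such as Igf1 with 8969 exon bases, are given without it.

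**Figure D2:**
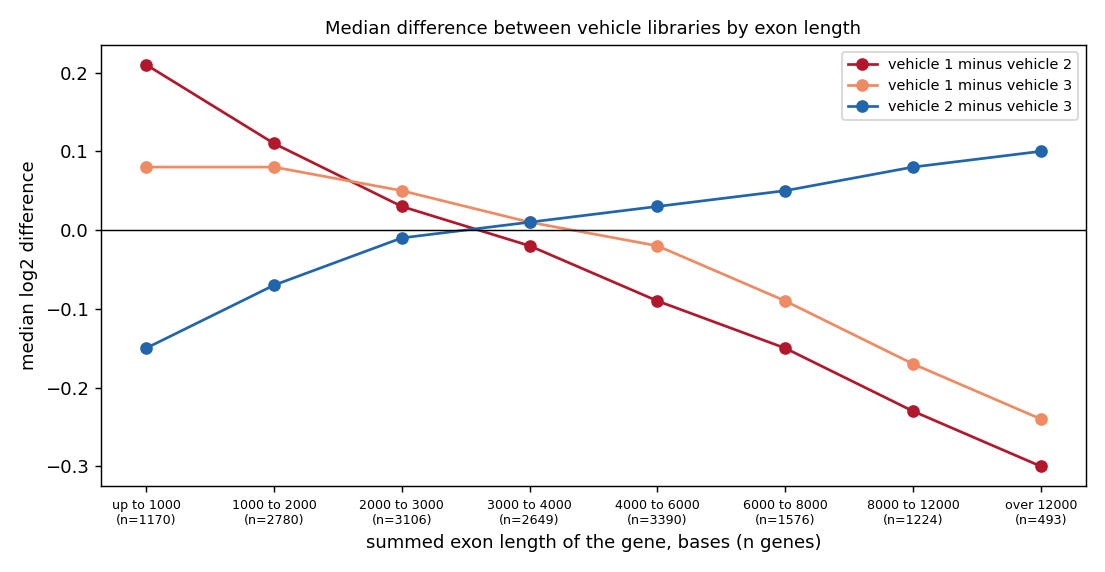
Median log2 difference between pairs of vehicle libraries (y axis) in 8 classes of summed exon length (x axis, bases, with the number of genes). Both differences that involve the pooled vehicle 1 fall from left to right, to −0.30 and −0.24 over genes longer than 12000 bases, while vehicle 2 minus vehicle 3 ends at 0.10.

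The lesions expressed 14694 genes at 1 TPM or more in all 3 libraries, 9501 at 10 TPM, 1490 at 100 TPM and 106 at 1000 TPM or more. The 50 most abundant genes together took 18.4%, 15.3% and 17.4% of all TPM (17% ± 1.58). Of these 50, 23 encode ribosomal proteins, a class that took 11.4%, 10.7% and 11.5% of all TPM. The single most abundant symbol was Igkc, the immunoglobulin kappa constant region (chromosome 6, 70726435 to 70726754, GRCm38), at 14563, 9055 and 11831 TPM. It was followed by Rn18s-rs5, an 18S ribosomal RNA sequence, at 11010 ± 2316 TPM. Igha, the heavy chain constant region of IgA antibodies, was the fourth symbol at 5537 ± 830 TPM. Reads that align to near-identical copies were not counted by default, so immunoglobulin values are uncertain.

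Among protein-coding genes outside the immunoglobulins, B2m led at 7920, 8345 and 7546 TPM. B2m is the light chain of MHC class I molecules and is made by nearly all cells. Housekeeping products followed, with the elongation factor Eef1a1 at 5475 ± 240 TPM, Tpt1 at 4992 ± 380 TPM and Actb, cytoplasmic actin, at 4186 ± 965 TPM. Tmsb4x, which binds monomeric actin, was at 5374, 4033 and 5816 TPM. Ribosomal proteins among the 25 named genes lay between 2367 TPM (Rps14) and 4926 TPM (Rplp1).

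Several of the leading genes are products of a particular cell type. Lyz2, lysozyme of macrophages and neutrophils, was at 6271, 3487 and 5277 TPM, so vehicle 2 was low. Apoe, a lipid carrier that macrophages secrete in quantity, was at 5279, 4216 and 4093 TPM, and Cd74, the MHC class II invariant chain, at 5429, 3317 and 3115 TPM. Both were highest in the pool. Ferritin chains Ftl1 and Fth1, which store iron, were at 4145 ± 1049 and 3414 ± 1082 TPM and also highest in the pool. Mgp, matrix Gla protein, was at 3797, 3289 and 4399 TPM, Col3a1, a fibrillar collagen, at 2399, 2750 and 2720 TPM, and Sparc, a collagen-binding matrix protein, at 2432, 2733 and 2660 TPM. The SD over the libraries was 194 TPM for Col3a1 and 157 TPM for Sparc, against 1411 TPM for Lyz2 and 1282 TPM for Cd74. Ltf, lactotransferrin, and Lcn2, lipocalin, 2 iron-binding defence proteins secreted by estrogen-stimulated uterine epithelium and also stored in neutrophil granules, stood at 3838, 1968 and 2962 TPM and at 3309, 2745 and 3078 TPM.

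Marker lists were summed to describe the cell types, and the labelled tissue was checked against them. Every marker of uterine epithelium, stroma and smooth muscle was detected, while 7 of 12 gland markers were not. In bulk tissue, fewer cells of a type and less RNA per cell cannot be told apart. B and plasma cell markers had the highest sum, 22595, 16271 and 20755 TPM, of which Igkc and Igha made up most. Macrophage markers summed to 16919, 11155 and 12887 TPM, skeletal muscle markers to 6521, 16746 and 16873 TPM, smooth muscle markers to 10910, 9431 and 11265 TPM and uterine stroma markers to 9933, 10706 and 10881 TPM. Epithelial markers summed to 6944, 5329 and 4832 TPM, endothelial markers to 695, 795 and 1003 TPM and pericyte markers to 302, 418 and 455 TPM. These sums depend on which genes a list holds and are compared here between libraries, not as proportions of cells.

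**Figure D3:**
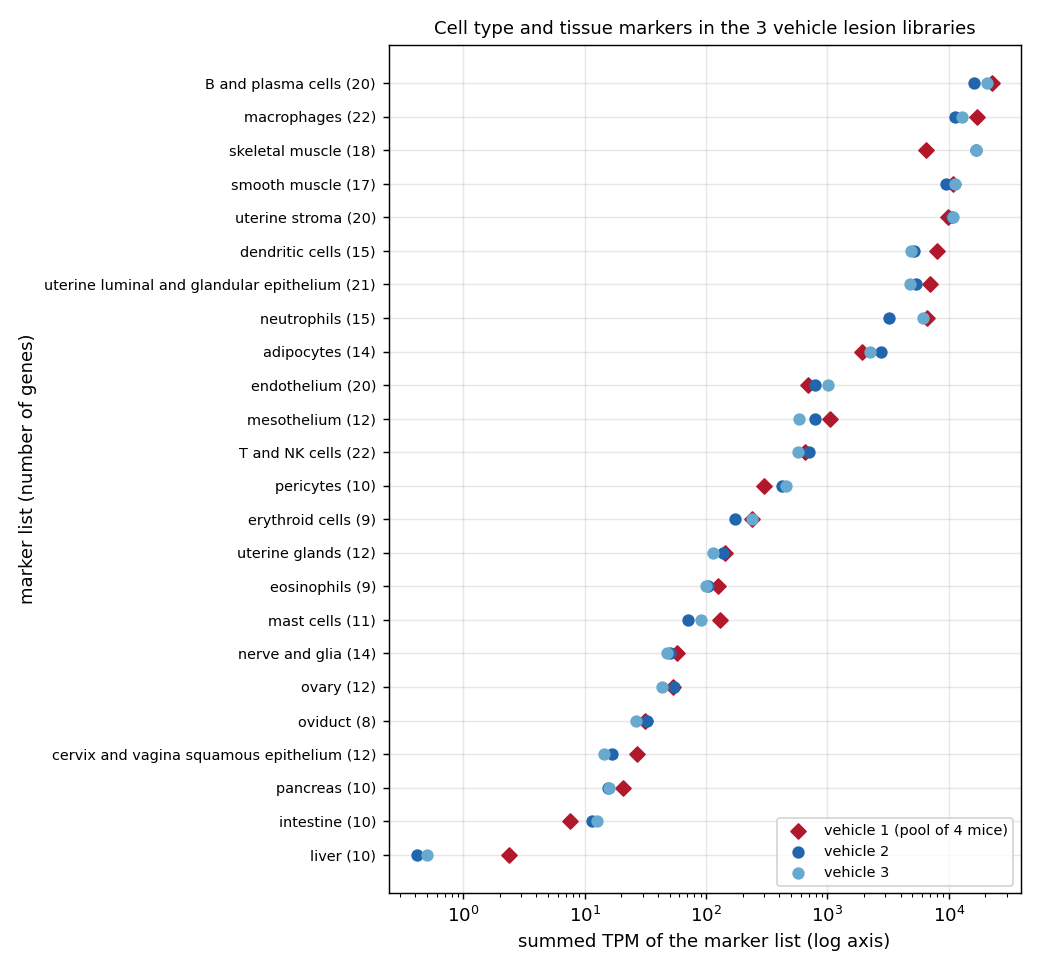
Summed TPM (log axis) of 24 cell type and tissue marker lists in the 3 vehicle libraries, with the number of genes in brackets; each point is 1 library and there is no error bar. Skeletal muscle separates the pool (6521 TPM) from the single-animal libraries (16746 and 16873 TPM), and liver, pancreas and intestine markers lie at the bottom.

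All 21 markers of uterine luminal and glandular epithelium were detected. Keratins of simple epithelium were abundant, with Krt8 at 481, 278 and 180 TPM, Krt18 at 431, 266 and 174 TPM and Krt19 at 552, 283 and 180 TPM. All 3 keratins were highest in the pool and lowest in vehicle 3. The adhesion molecules Epcam and Cdh1 were at 342, 250 and 182 TPM and at 134, 120 and 82.5 TPM, in the same order, and the surface mucin Muc1 was at 192 ± 33.3 TPM. Vehicle 1 lay above both others at 18 of 21 epithelial markers and below at none, where 36.8% of all tested genes lay above. Ehf, Grhl2 and Esrp1 lay within the range of the others, at log2 differences of −0.06, 0.18 and 0.26. Krt19 is also in the mesothelial list given below, and the part of mesothelium in the keratin levels was not tested. It was at least 2-fold above at 4 of 21 (1.55% of all genes). The median log2 difference from the single-animal libraries was 0.68, against −0.01 over all genes. Msx1, a homeobox gene of uterine epithelium, stood out at 49.1, 14.7 and 14.8 TPM, a log2 difference of 1.89 (SE 0.17, adjusted p = 0.18 in edgeR). Vehicle 2 exceeded vehicle 3 at 17 of 21 markers, where 49.6% of all tested genes did.

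Markers of uterine glands were mostly low. Foxa2, the transcription factor required for gland formation, was detected at 3.6, 2.6 and 1.79 TPM. The adult gland products Prss28, Prss29, Spink3 and Ttr had no count in any library, and Cxcl15 reached at most 0.0596 TPM. The detected members were Aldh1a1, which makes retinoic acid, at 104, 92.7 and 87.2 TPM, Sox17 at 16.1, 22.2 and 16.4 TPM, Calb1 at 10.2, 10.4 and 2.47 TPM and Lif, the cytokine that opens the uterus to implantation, at 6.73, 9.21 and 4.53 TPM. Thus 5 of 12 gland markers were detected, and most of these are also expressed outside glands.

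All 20 uterine stroma markers were detected. Hoxa10 and Hoxa11, which give the uterus its identity along the reproductive tract, were at 83.5, 133 and 164 TPM and at 66.2, 114 and 130 TPM. Both were lowest in the pool. Hand2, a stromal factor that relays progesterone signals, was at 27.2, 35.1 and 28.2 TPM and Pdgfra, a fibroblast receptor, at 72.1, 102 and 118 TPM. The matrix genes Dcn and Col1a1 were at 2308 ± 289 and 1805 ± 301 TPM and Vim, the mesenchymal intermediate filament, at 1333 ± 194 TPM. Vehicle 1 lay below both others at 10 of 20 markers, where 38.9% of all genes did. None was at least 2-fold apart, where 1.55% of all genes lay above and 2.22% below. Wnt5a, a stromal signal, was at 38.4, 113 and 55.9 TPM and Igf1, the growth factor by which stroma relays estrogen, at 40.6, 99.8 and 61.1 TPM, so both were highest in vehicle 2.

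Hox genes of the uterus and upper tract were expressed and those of the lower tract were not detected. Of 23 posterior Hox and tract genes, 20 were detected. Besides Hoxa10 and Hoxa11, Hoxa9, a gene of the oviduct and upper tract, was at 16, 36.1 and 49 TPM, Hoxd9 at 32.3, 60.9 and 61.6 TPM and Hoxd10 at 30, 63.5 and 58.9 TPM. Hoxa13 and Hoxd13, genes of the cervix, vagina and external genitalia, were at or near 0, at no more than 0.396 and 0.0598 TPM. Tcf21, a mesenchymal factor, was at 76.9, 142 and 136 TPM and Emx2, which the reproductive tract needs to form, at 50.2, 76 and 61.6 TPM. Of the 20 tested, vehicle 1 was below both others at 12 (38.9% of all genes) and above at 5 (36.8%), with a median log2 difference of −0.43. With each difference set against the median of its own length class the list's median was −0.47.

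All 17 smooth muscle markers were detected at high levels. Acta2, the smooth muscle actin, was at 1732, 1677 and 1892 TPM and Myh11, the smooth muscle myosin heavy chain, at 417, 375 and 425 TPM. Des, an intermediate filament of all muscle, was at 1186, 818 and 1079 TPM, and Cnn1, an actin-binding regulator of contraction, at 626, 416 and 549 TPM. Tagln and Myl9 were at 2272 ± 422 and 1557 ± 141 TPM. No marker was at least 2-fold apart in the pool, where 1.55% of all genes lay above and 2.22% below. The median log2 difference was 0.03. All 17 were higher in vehicle 3 than in vehicle 2, by a median of 0.32 on the log2 scale, where 49.6% of all genes were higher in vehicle 2.

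Skeletal muscle, which is not part of the uterus, gave the lowest median difference between the pool and the single-animal libraries among 33 lists with at least 5 tested members. Acta1, skeletal actin, was at 1791, 3763 and 3848 TPM, Ckm, muscle creatine kinase, at 806, 2295 and 2279 TPM, and Myh4, a fast myosin heavy chain, at 263, 1138 and 934 TPM. The pool was lowest in each, and vehicle 2 and 3 lay close together. Vehicle 1 lay below both others at 17 of 18 members, where 38.9% of all genes did, and at least 2-fold below at 13, where 2.22% did. The median log2 difference was −1.35, against 1.32 for the mesothelial list at the other end. Without vehicle 3 it was −1.28, smaller in size than 1.65 for B and plasma cells, 1.59 for mast cells and 1.49 for mesothelium. No member passed the adjusted threshold. The members were measured in the same 3 libraries, so they are not separate support for a difference. The list was also chosen with earlier results of these data known. The giant sarcomere genes Ttn at 3.73, 24 and 19.9 TPM and Neb at 13.1, 72.2 and 63.3 TPM had the largest differences, −2.39 (SE 0.23) and −2.21 (SE 0.21), both with an adjusted p of 0.18 in edgeR. Set against the medians of its length classes the list's median was −1.31. Myh2, another fast myosin, did not follow, at 61.3, 67.7 and 72.3 TPM. Skeletal muscle genes thus took 0.652%, 1.67% and 1.69% of all TPM. Leaving so small a part out of the total rescales the other shares only slightly, and it moved none beyond its SD between libraries.

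Promoters of 3 genes are shown because genes of the skeletal muscle, smooth muscle and immediate early lists, whose median log2 differences were −1.35, 0.03 and 0.90, carry the same element there. The CArG box is bound by serum response factor, which drives skeletal and smooth muscle genes and also the immediate early genes that cells switch on within minutes of a stimulus. Sequences are from RefSeq (GRCm38.p6), 5′ to 3′ on the gene's strand, in lower case with the CArG box in capitals, and end at the base before the gene's start. The Acta1 bases are chr8:123894776-123894875 (minus strand), the Myl9 bases chr2:156775264-156775434 (plus strand) and the Zfp36 bases chr7:28379229-28379328 (minus strand).
Acta1: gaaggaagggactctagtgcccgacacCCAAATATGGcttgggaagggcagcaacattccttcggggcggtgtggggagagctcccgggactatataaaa
Myl9: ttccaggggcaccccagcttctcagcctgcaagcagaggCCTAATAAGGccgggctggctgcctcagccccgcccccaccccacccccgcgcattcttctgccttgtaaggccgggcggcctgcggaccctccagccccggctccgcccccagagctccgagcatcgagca
Zfp36: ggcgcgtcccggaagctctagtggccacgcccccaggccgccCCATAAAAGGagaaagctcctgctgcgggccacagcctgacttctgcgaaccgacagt

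The box lies 73 to 64 bases before the start in Acta1 and 58 to 49 in Zfp36. In Myl9 it lies 161 to 152 bases before the RefSeq start. The printed Myl9 bases end upstream of that start, before the first counted exon base of the gene. A CArG box on either strand was found within 250 bases before the start in 439 of 27025 RefSeq genes (1.62%). It was found in 2 of 14 skeletal muscle markers with a promoter sequence (Myh4 and Acta1), in 1 of 12 smooth muscle markers (Myl9) and in 1 of 13 immediate early genes (Zfp36). Some other lists held it at similar shares, in 1 of 10 B and plasma cell markers, 1 of 7 nerve markers, 1 of 7 intestine markers and 1 of 17 progesterone-responsive genes. The remaining lists had no match, among them 0 of 24 other nuclear receptors, 0 of 22 estrogen-induced genes and 0 of 18 matrix genes. Of the 3 genes shown, none differed past the threshold. Acta1 was lower in the pool, at a log2 difference of −0.93 (SE 0.23), Myl9 was at 1395, 1621 and 1655 TPM with a difference of −0.07 (SE 0.20), and Zfp36, which destabilises inflammatory mRNAs, was at 191, 103 and 133 TPM with a difference of 0.85 (SE 0.23). Their adjusted p values in edgeR were 0.28, 0.91 and 0.3. A match describes these letters only and is not evidence of binding.

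Endothelial markers were all detected, 20 of 20, with Plvap of fenestrated capillaries at 113, 107 and 137 TPM, Pecam1 at 86.5, 103 and 136 TPM and Cdh5, the junctional cadherin, at 41.4, 58.6 and 60.3 TPM. The lymphatic markers Lyve1 and Prox1 were at 67.6, 40.1 and 63 TPM and at 4.68, 3.87 and 7.5 TPM. Vehicle 1 lay below both others at 14 of 20 markers (38.9% of all genes), none by at least 2-fold (2.22% of all genes). Vehicle 3 exceeded vehicle 2 at 19 of 20, where 49.6% of all genes were higher in vehicle 2. Pericyte markers were all detected as well, 10 of 10, with Rgs5 at 74.1, 152 and 170 TPM and Cspg4 at 10.6, 10.1 and 9.42 TPM. Rgs5 was lowest in the pool, whereas Cspg4 was nearly level.

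Macrophage markers were detected at 21 of 22. Complement C1q chains, made by tissue macrophages, were at 1327, 854 and 868 TPM (C1qa), 1324, 878 and 742 TPM (C1qb) and 1044, 666 and 678 TPM (C1qc). The defining markers were Emr1, which encodes F4/80, at 117, 108 and 96.1 TPM, Csf1r, the growth factor receptor of the lineage, at 195, 122 and 120 TPM and Cd68, a lysosomal protein, at 235 ± 80.9 TPM. All were highest in the pool. Vehicle 1 lay above both others at 19 of 22 members (36.8% of all genes) and at least 2-fold above at 4 (1.55% of all genes), and the median log2 difference was 0.78. Those 4 were Timd4, Folr2, Vsig4 and Cd163, receptors known from resident tissue macrophages. Timd4 was at 13.4, 1.51 and 1.26 TPM and Folr2 at 47.1, 8.55 and 13.5 TPM. Vsig4 was at 5.91, 0.785 and 1.25 TPM and Cd163 at 10.1, 5.35 and 2.95 TPM. The 2-fold limit is on CPM, and in TPM Cd163 was less than 2-fold above vehicle 2. Gata6, the factor of resident peritoneal macrophages, was at 18.1, 9.44 and 15.3 TPM, and Cx3cr1 at 39.9, 47.1 and 39.5 TPM did not share the pattern.

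Dendritic cell markers were detected at 15 of 15. Antigen presentation genes that macrophages and B cells also express dominated the sum, with Cd74 as above, H2-Aa at 1193, 701 and 703 TPM and H2-Ab1 at 745, 518 and 484 TPM. H2-Eb1, another class II gene, was nearly level at 333, 358 and 353 TPM. Of the defining lineage genes, Flt3 at 4.58, 6.21 and 5.1 TPM and Zbtb46 at 4.89, 7.02 and 7.09 TPM were low and lowest in the pool. Itgax, the integrin chain CD11c, which some macrophages also carry, was at 82.1, 38.6 and 62.6 TPM and highest in the pool, as was Cd209a at 36, 21.2 and 18.2 TPM. Vehicle 1 lay above both others at 11 of 15 members (36.8% of all genes) and below at 3 (38.9%), with a median log2 difference of 0.26.

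Neutrophil markers were detected at 11 of 15. Calgranulins S100a8 and S100a9 were at 1211, 494 and 1253 TPM and at 1282, 520 and 1634 TPM, so vehicle 2 was low in both. The receptors Csf3r and Cxcr2, found on mature neutrophils, were at 67.3, 67.6 and 77.5 TPM and at 40.4, 34.9 and 58.5 TPM. Granule genes of precursor cells were near 0, with Mpo at no more than 0.353 TPM and Elane at no more than 0.55 TPM. Of the 12 tested members, 10 were higher in vehicle 3 than in vehicle 2, where 49.6% of all genes were higher in vehicle 2. At 4 of the 10 the difference was at least 2-fold (2.36% of all genes). Retnlg was among them, at 64.7, 10.9 and 69 TPM.

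T and NK cell markers were all detected, 22 of 22, at low to moderate levels. The CD3 chains were at 55.1, 38.7 and 40.6 TPM (Cd3e), 100, 89.8 and 91.1 TPM (Cd3g) and 43.8, 35.9 and 38.2 TPM (Cd3d). Ncr1, an activating receptor of NK cells, was at 5.53, 18 and 11.3 TPM and the granzyme Gzma at 31.3, 65.2 and 50 TPM. Nkg7, a granule protein of cytotoxic cells, was at 126, 111 and 72.1 TPM and the NK receptor Klrd1 at 47.4, 60.5 and 43.7 TPM. The CD3 chains and Nkg7 were highest in the pool, Ncr1 and Gzma were lowest there, and Klrd1 lay within the range of the others. Vehicle 1 lay above both others at 8 of 22 members (36.8% of all genes) and below at 7 (38.9%), both shares near those of all genes. Foxp3, the factor of regulatory T cells, was at 3.99, 5.18 and 5.75 TPM.

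B and plasma cell markers differed between all 3 libraries. The B cell surface genes Ms4a1 and Cd79a were at 40.9, 6.9 and 23.5 TPM and at 60.4, 12.6 and 32 TPM. Vehicle 2 was lowest and the pool highest in both. Ighm, the IgM heavy chain, was at 992, 172 and 319 TPM and Ighg1 at 236, 10.5 and 171 TPM, while Igha, at 4791, 5389 and 6431 TPM, and the joining chain gene Igj, at 1065, 1034 and 1300 TPM, varied little. Vehicle 3 exceeded vehicle 2 at 19 of 20 members, where 49.6% of all genes were higher in vehicle 2. At 10 of them the difference was at least 2-fold (2.36% of all genes). The pool lay above both at 17 of 20 (36.8% of all genes), with a median log2 difference of 1.08.

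Other blood cells contributed little. Mast cell proteases Cpa3, Mcpt4 and Cma1 were at 6.62 ± 2.85, 7.11 ± 4.84 and 13.8 ± 8.78 TPM, highest in the pool in each case, and the mucosal protease Mcpt1 had no count. Eosinophil peroxidase, Epx, had no count in any library, whereas Prg2 was at 4.63, 12.2 and 7.79 TPM and Siglecf at 5.8, 11.6 and 12.4 TPM. Other members went the other way, and the 9 eosinophil markers summed to 126, 103 and 100 TPM, highest in the pool. Of 6 tested, 2 lay above both others in the pool (36.8% of all genes) and 2 below (38.9%). Haemoglobin Hbb-bs was at 142, 109 and 139 TPM and the erythroid factor Klf1 reached at most 0.154 TPM.

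Mesothelial markers were highest in the pool. Upk3b, a uroplakin of mesothelial cells, was at 64.9, 4.34 and 8.66 TPM, Lrrn4 at 16.1, 1.41 and 2.69 TPM, Upk1b at 26.7, 3.08 and 6.22 TPM and Msln, mesothelin, at 32.7, 15.5 and 16 TPM. Of 12 members, 9 lay above both others in vehicle 1 (36.8% of all genes) and 7 at least 2-fold above (1.55% of all genes), with a median log2 difference of 1.32. The list shares Krt19 with the epithelial list. Upk3b had a log2 difference of 3.47 (SE 0.47, adjusted p = 0.2 in edgeR). Wt1, which uterine stroma also expresses, was nearly level at 62.4, 54.3 and 71.2 TPM, and Aldh1a2 was highest in vehicle 2 at 204, 365 and 220 TPM. Of 12 tested fat markers, 8 lay above both others in the pool (36.8% of all genes) and 3 below (38.9%), and several were highest in vehicle 1 and lowest in vehicle 3. Adipoq, adiponectin, was at 72.1, 32.6 and 7.47 TPM, Plin1, the lipid droplet coat, at 13.1, 4.82 and 1.1 TPM, Cfd, adipsin, at 436, 141 and 42.9 TPM, and Fabp4 at 251, 216 and 138 TPM. The 3 markers below both others in the pool were Car3, which skeletal muscle also makes, at 725, 2028 and 1672 TPM, Plin4 at 9.7, 18.7 and 11.7 TPM and Slc2a4, the insulin-responsive glucose transporter of fat and muscle, at 12.5, 20.9 and 21.1 TPM. With Car3 as its most abundant member, the list summed lowest in the pool, at 1910, 2746 and 2249 TPM.

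Most markers of liver, pancreas and intestine were under the detection limit, while some listed for ovary, oviduct and squamous epithelium were detected. None of 10 liver markers, 1 of 10 pancreas markers (Cela1, at 17.1 ± 2.78 TPM) and 1 of 10 intestine markers (Lgals4, at 9.27 ± 3.01 TPM) was detected. The aromatase Cyp19a1, the oocyte gene Zp3 and the gonadotropin receptor Fshr, listed for the ovary, had at most 0.0641 TPM. The 4 of 12 ovary markers that were detected were Inha, Inhba, Star and Foxl2, the last, a factor also known from uterine stroma, at 11.3, 33.5 and 21.2 TPM. Of 8 oviduct markers 4 were detected, led by Pax8, a factor of Müllerian duct epithelium, at 20.7, 24.7 and 16.6 TPM, with Ovgp1 and Foxj1, the latter a factor of ciliated cells, at 3.54 ± 0.812 and 3.05 ± 0.0247 TPM. Of 12 squamous markers 3 were detected, Krt14 at 9.41, 3.91 and 2.54 TPM, Sbsn at 6.63, 4.36 and 4.29 TPM and Krt10 at 3.72, 4.4 and 4.47 TPM. The defining squamous keratins Krt5 and Krt13 and the squamous factor Trp63 stayed at or under 1.28 TPM, while Krt6a was at 3.92, 0.526 and 0.348 TPM. In the nerve list 5 of 14 markers were detected, and the neuronal tubulin Tubb3 was at 8.42, 3.58 and 3.56 TPM. Of 7 tested nerve markers, 3 lay above both others in the pool (36.8% of all genes) and 1 below (38.9%). At least 2-fold above was 1 (1.55% of all genes) and at least 2-fold below was 1 (2.22%), with a median log2 difference of 0.15.

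Among nuclear receptors of estrogen and progesterone, estrogen receptor alpha led. Esr1 was at 57.1, 105 and 82.7 TPM (81.6 ± 24) and Pgr, the progesterone receptor, at 23.5, 65.9 and 35.8 TPM (41.8 ± 21.8). Both were highest in vehicle 2 and lowest in the pool. Esr2, estrogen receptor beta, was at 0.351, 1.1 and 0.328 TPM, under the detection limit in 2 of 3 libraries. The mean of Esr1 was 137 times that of Esr2, and between 95.1 and 253 times in single libraries. Within each library Esr1 exceeded Pgr, by 1.59 to 2.43 times, although their ranges over the libraries overlapped.

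Membrane-associated progesterone receptors behaved differently. Pgrmc1, a haem-binding membrane protein, was more abundant than Esr1 at 161, 193 and 193 TPM, and its range did not overlap that of Esr1. Pgrmc2 followed Esr1 at 58.5, 67.2 and 61.1 TPM. The membrane progestin receptors Paqr7, Paqr8 and Paqr5 were at 8.65 ± 0.816, 6.49 ± 0.286 and 1.91 ± 0.442 TPM and the membrane estrogen receptor Gper1 at 1.3 ± 0.301 TPM. Among the receptors reported, the order by mean TPM was Pgrmc1, Esr1, Pgrmc2, Pgr, Paqr7, Paqr8, Paqr5, Gper1 and Esr2. The ranges of neighbours were apart at Pgrmc1 and Esr1, at Pgr and Paqr7, at Paqr7 and Paqr8, and at Paqr8 and Paqr5, and overlapped at the other steps.

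None of the sex steroid receptors differed from the single-animal libraries past the threshold. The log2 difference of the pool was −0.55 (SE 0.20, adjusted p = 0.36 in edgeR) for Esr1 and −0.93 (SE 0.38, adjusted p = 0.4) for Pgr. It was positive for Paqr5 (0.70, SE 0.35) and Paqr7 (0.39, SE 0.20), with adjusted p of 0.46 and 0.47. Esr1 and Pgr are long genes of 9266 and 12667 exon bases, and the medians of their length classes were −0.20 and −0.28. Set against those medians their differences were −0.35 and −0.66. Without vehicle 2 the difference of Pgr was −0.51 and without vehicle 3 it was −1.26.

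**Figure D4:**
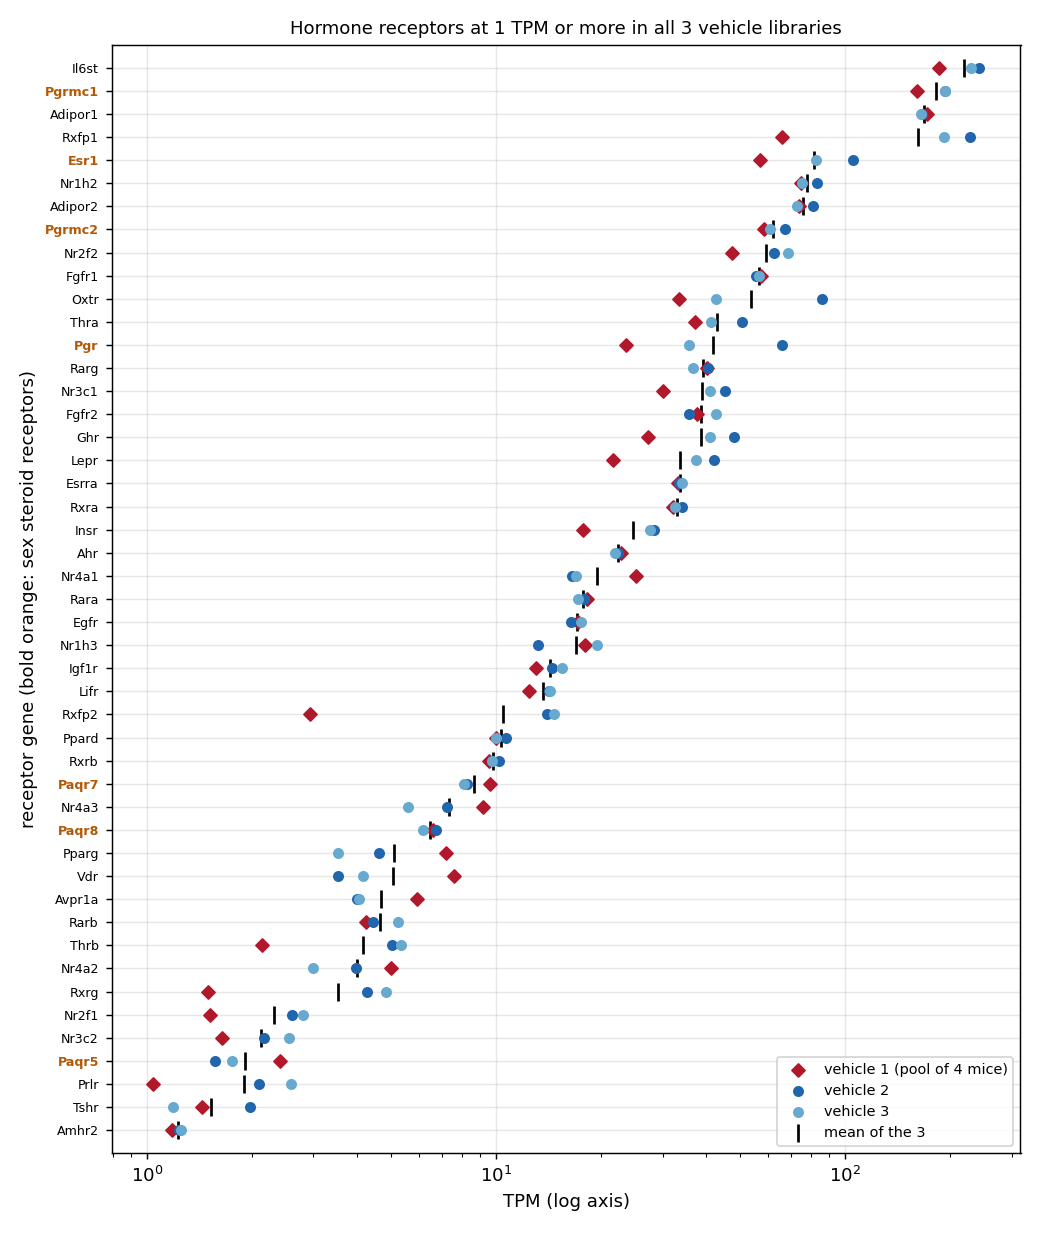
TPM (log axis) of hormone receptor genes detected in all 3 vehicle libraries, all but 1 of 48, ordered by mean (black tick); each coloured point is 1 library and sex steroid receptors are in bold orange. Il6st and Pgrmc1 lead, and the widest spreads include Rxfp1 (66.1 to 228 TPM), Rxfp2 (2.94 to 14.7 TPM) and Pgr (23.5 to 65.9 TPM).

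Of the 61 hormone receptors listed, 48 were detected. In their order by mean TPM the ranges of neighbours overlapped at 58 steps and were apart at 2, between Adipor2 and Pgrmc2 and between Rxra and Insr. Among other nuclear receptors 22 of 28 were detected. The oxysterol receptor Nr1h2 led at 74.7, 83.3 and 75.4 TPM, ahead of the stromal orphan receptor Nr2f2 at 47.4, 62.4 and 68.4 TPM and the thyroid hormone receptor Thra at 37.1, 50.6 and 41.4 TPM. The glucocorticoid receptor Nr3c1 was at 30.1, 45.4 and 40.9 TPM, far above the mineralocorticoid receptor Nr3c2 at 1.64, 2.17 and 2.55 TPM. Retinoid receptors other than Rxrg, given below, were level over the libraries, with Rarg at 39.2 ± 2.14 TPM, Rara at 17.8 ± 0.525 TPM, Rarb at 4.64 ± 0.52 TPM, Rxra at 33 ± 1.08 TPM and Rxrb at 9.82 ± 0.309 TPM. So were the orphan receptor Esrra at 33.6 ± 0.454 TPM, the xenobiotic sensor Ahr at 22.4 ± 0.491 TPM and the fatty acid sensor Ppard at 10.3 ± 0.389 TPM.

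A second set of nuclear receptors varied. Rxrg at 1.5, 4.27 and 4.83 TPM, Thrb at 2.14, 5.03 and 5.34 TPM and Esrrg at 0.38, 1.45 and 1.7 TPM, the last under the detection limit in the pool, were at least 2-fold lower in the pool than in both others. Those 3 of 27 tested members compare with 2.22% of all genes, and Rxrg and Esrrg are known from skeletal muscle, whose markers were also lowest in the pool. The part of muscle in their levels was not tested. The vitamin D receptor Vdr was highest in the pool at 7.56, 3.53 and 4.16 TPM, as was the fat cell regulator Pparg at 7.19, 4.61 and 3.52 TPM. The inducible orphan receptors Nr4a1, Nr4a2 and Nr4a3 were at 25.1, 16.5 and 17 TPM, at 5, 3.96 and 3 TPM and at 9.18, 7.22 and 5.59 TPM. The pool was the highest library for each. The oxysterol receptor Nr1h3, abundant in macrophages, was at 18, 13.2 and 19.4 TPM and Nr2f1 at 1.52, 2.61 and 2.8 TPM.

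Among 23 peptide hormone and growth factor receptors 18 were detected. Il6st, the signalling chain shared by the interleukin-6 family including Lif, was at 186, 242 and 229 TPM, and its partner Lifr at 12.4, 14.2 and 14.3 TPM. Adiponectin receptors Adipor1 and Adipor2 were at 168 ± 3.64 and 75.9 ± 4.52 TPM. The growth factor receptors Fgfr1, Fgfr2, Egfr and Igf1r were at 56.5 ± 0.943, 38.7 ± 3.56, 17.1 ± 0.579 and 14.3 ± 1.24 TPM, with little spread. The insulin receptor Insr at 17.8, 28.3 and 27.6 TPM, the growth hormone receptor Ghr at 27.2, 47.9 and 40.9 TPM and the leptin receptor Lepr at 21.6, 42.1 and 37.4 TPM were lowest in the pool.

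The relaxin and oxytocin receptors had some of the widest spreads. Rxfp1, the relaxin receptor of uterine stroma and smooth muscle, was at 66.1, 228 and 192 TPM, a log2 difference of −1.50 for the pool (SE 0.21, adjusted p = 0.2 in edgeR). Rxfp2, which binds the related peptide Insl3, was at 2.94, 14 and 14.7 TPM, a difference of −2.13 (SE 0.20, adjusted p = 0.18). In both the pool was at least 2-fold below both single-animal libraries, which lay close together. Oxtr, the oxytocin receptor of myometrium, was at 33.4, 85.7 and 42.7 TPM and followed the pattern of Pgr, with vehicle 2 high. The prolactin receptor Prlr was at 1.04, 2.09 and 2.58 TPM, Avpr1a at 5.94, 4 and 4.06 TPM, Tshr at 1.53 ± 0.394 TPM and Amhr2, the receptor of anti-Müllerian hormone, at 1.23 ± 0.0355 TPM. The gonadotropin receptors Lhcgr and Fshr reached at most 0.0347 TPM, and Gnrhr and Crhr1 had no count.

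Receptor chaperones were abundant, and their list differed little between the pool and the single-animal libraries. Hsp90ab1 was at 1736, 1693 and 1430 TPM, Hsp90aa1 at 205, 257 and 190 TPM, the co-chaperone Fkbp4, which progesterone receptor function needs, at 229, 248 and 161 TPM and Ptges3 at 188, 196 and 182 TPM. The p160 coactivators Ncoa1, Ncoa2 and Ncoa3 were at 11.6 ± 2.57, 17.7 ± 3.36 and 30.1 ± 2.61 TPM. All 18 members of this list were detected. None was at least 2-fold apart in the pool, where 1.55% of all genes lay above and 2.22% below. The median log2 difference was −0.08, or 0.04 against the medians of the length classes. Vehicle 2 exceeded vehicle 3 at 13 of 18 (49.6% of all genes), with a median log2 difference of 0.24.

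Steroid-making enzymes were largely missing and steroid-inactivating ones present. Cyp17a1, Cyp19a1, Hsd3b1 and Hsd3b6 reached at most 0.169 TPM and Hsd3b2 had no count. Cyp11a1, which cleaves the side chain of cholesterol, was at 1.05, 0.46 and 0.843 TPM. Star, which brings cholesterol into mitochondria, was at 32.9, 7.23 and 10.8 TPM, so the pool was at least 2-fold above both others. The dehydrogenases Hsd17b11 and Hsd17b4 were the most abundant members at 205 ± 19.4 and 101 ± 5.19 TPM. Hsd11b1, which regenerates active glucocorticoid, was level at 28.6 ± 1.8 TPM. Hsd11b2, which inactivates glucocorticoid, was at 17.8, 150 and 119 TPM, a log2 difference of −2.75 for the pool (SE 0.20, adjusted p = 0.18 in edgeR).

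Genes known to be induced by estrogen in the uterus were well expressed, with 22 of 26 detected and a sum of 12063, 7886 and 9560 TPM. Ltf and Lcn2, given above, made up more than any other members. Complement C3, an epithelial estrogen target, was at 1722, 569 and 894 TPM, highest in the pool. Sprr2f, a small proline-rich protein of uterine epithelium, was at 1651, 704 and 1080 TPM and Sprr2b at 509, 631 and 787 TPM, and both belong to a family of near-identical copies whose counts are uncertain. Greb1, a direct Esr1 target, was at 5.56, 17.8 and 10.4 TPM and Padi1 at 27.5, 67.5 and 26.1 TPM, highest in vehicle 2 like Esr1, Pgr, Igf1 and Oxtr. The list therefore held members that were highest in the pool and members that were highest in vehicle 2. The pool was above both others at 10 of 22 tested members (36.8% of all genes) and below at 6 (38.9%).

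Progesterone-responsive genes were expressed at 18 of 24 and summed to 970, 981 and 953 TPM, the most even sum of the hormone lists, although single members varied. The epithelial targets Ihh and Areg were low, at no more than 0.483 and 0.915 TPM, and neither was detected. Ptch1, the receptor of hedgehog ligands, was at 6.28, 7.22 and 7.31 TPM, Cbr2 at 389, 274 and 182 TPM and Irg1 at 110, 48.3 and 88 TPM, the last also made by activated macrophages. Tsc22d3, a target of progesterone and glucocorticoid, was at 90.9 ± 9.11 TPM. Of 21 tested members, 8 lay above both others in the pool (36.8% of all genes) and 7 below (38.9%), shares near those of all genes, with a median log2 difference of −0.09. At least 2-fold above were 3 of 21 (1.55% of all genes) and at least 2-fold below was 1 (2.22%). No member passed the adjusted threshold, and the members share the same 3 libraries.

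Extracellular matrix genes were all detected, 29 of 29, and took 2.09%, 2.25% and 2.19% of all TPM. Col1a2 was at 2283 ± 487 TPM and Bgn, a small proteoglycan, at 1452 ± 271 TPM. Timp1, an inhibitor of matrix proteases, was the one member at least 2-fold above both others in the pool, at 467, 136 and 185 TPM, a log2 difference of 1.69 (SE 0.26, adjusted p = 0.2 in edgeR). Fn1, fibronectin, was at 618, 320 and 401 TPM and Tnc, a matrix protein of repair, at 174, 94.9 and 108 TPM, whereas the collagen VI chain Col6a3 was at 130, 360 and 189 TPM. Postn, periostin, was lowest in vehicle 2, at 640, 386 and 940 TPM. Glycolysis and hypoxia genes were also all detected, 16 of 16, with Ldha at 953 ± 29.8 TPM, Aldoa at 956 ± 212 TPM, Gapdh at 561 ± 45.6 TPM, Vegfa at 45.5 ± 14.5 TPM and the glucose transporter Slc2a1 at 78.4, 46.5 and 48.7 TPM.

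Immediate early and stress genes, which also respond to tissue handling, were higher in the pool throughout. Fos was at 83.5, 36.1 and 34.3 TPM, Jun at 141, 89 and 98.5 TPM and Egr1 at 75.2, 36 and 39.1 TPM, while Dusp1, a phosphatase that limits MAP kinase signalling, was at 163, 55.4 and 71 TPM. The single-animal libraries lay close together and the pool above them. Vehicle 1 exceeded both others at 17 of 17 members (36.8% of all genes) and by at least 2-fold at 6 (1.55%), with a median log2 difference of 0.90. No member passed the adjusted threshold, and Fos had a log2 difference of 1.41 (SE 0.14). These genes were measured in the same 3 libraries, so they are not separate support for a difference. The list was chosen with earlier results of these data known. Structural RNA also summed higher in the pool, at 13544, 8773 and 11757 TPM, with Rn7sk at 296, 142 and 144 TPM. Haem oxygenase Hmox1 at 206, 101 and 125 TPM and the heat shock gene Hspa1b at 16.2, 7.46 and 8.41 TPM followed the list. The part that handling or RNA quality had in the difference between the pool and the single-animal libraries was not tested.

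**Figure D5:**
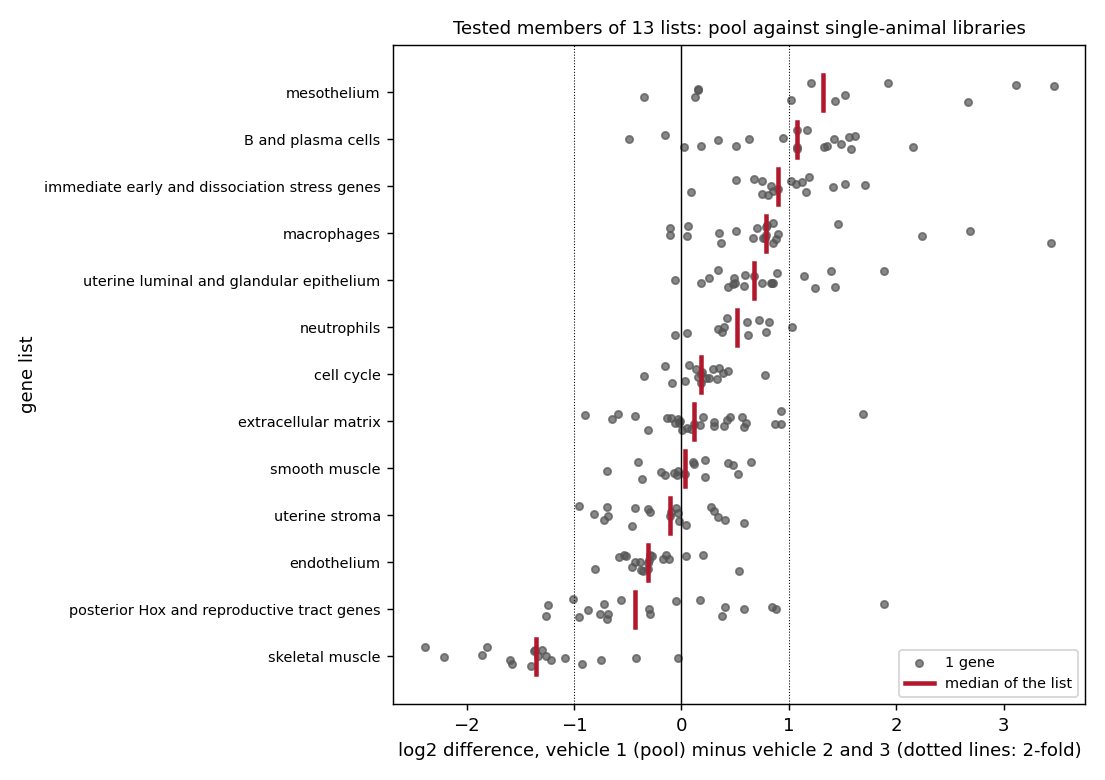
Log2 difference of every tested member (points) of 13 gene lists between the pooled vehicle 1 and vehicle 2 and 3, with the list's median as a red line; points are spread vertically for legibility and carry no error bar. Medians run from −1.35 for skeletal muscle to 1.32 for mesothelium, and no gene passed an adjusted p of 0.05 in edgeR.

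Over all tested genes, listed or not, those with the largest difference between pool and single animals were ranked among those with a mean log2 CPM of at least 1. Fcna, a ficolin made by resident macrophages, led the genes higher in the pool at 69.2, 3.41 and 5.27 TPM, a log2 difference of 4.15 (SE 0.33, adjusted p = 0.18 in edgeR). It was followed by Upk3b, Timd4 and Lrrn4, given above, and by Nkain4 at 32.1, 3.29 and 5.37 TPM. Ido1, which degrades tryptophan, was at 21.2, 4.74 and 1.38 TPM, the hyaluronan synthase Has1 at 2.71, 0.375 and 0.462 TPM and Wnt2b, a signalling ligand, at 6.59, 0.894 and 1.19 TPM. Cd209f, a lectin of myeloid cells, was at 12.6, 1.75 and 2.29 TPM and S100a14 at 18.4, 3.52 and 2.73 TPM. In all 10 the pool was far above both others, and in 7 the single-animal libraries were within 2-fold of each other.

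Genes lower in the pool were of 2 kinds. One kind was low in the pool and alike in vehicle 2 and 3. It comprised Xirp2, an actin-binding protein of muscle junctions, at 8.28, 66.9 and 70.2 TPM, Trdn, triadin of the muscle calcium store, at 16.5, 106 and 105 TPM, the muscle methyltransferase Mettl21c at 1.49, 10.3 and 8.45 TPM, Pdk4, which spares glucose in muscle, at 16.3, 100 and 118 TPM, the anion exchanger Slc26a7 at 4.93, 29 and 38.1 TPM, and Hsd11b2. Trdn had a log2 difference of −2.52 (SE 0.18, unadjusted p = 5.8e-05, adjusted p = 0.18 in edgeR). The other kind was high in 1 single-animal library, with Nrk at 0.152, 3.17 and 0.718 TPM, Mug1, a protease inhibitor, at 0.455, 10.5 and 0.928 TPM, Sphkap at 0.46, 5.89 and 1.5 TPM and Chil3 at 12.7, 18.4 and 211 TPM. Their SE ran from 1.00 to 1.73.

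Vehicle 2 and 3 differed from each other in other genes. There is 1 library on each side, so these differences have no replicate check. Chil3, a chitinase-like protein secreted by macrophages and neutrophils, was at 18.4 TPM in vehicle 2 and 211 TPM in vehicle 3, a log2 difference of −3.63 for vehicle 2 minus vehicle 3. Ctla2a, a cysteine protease inhibitor, was at 658, 410 and 3732 TPM, which placed it among the most abundant transcripts of vehicle 3 alone. Also higher in vehicle 3 were Nppa, the atrial natriuretic peptide, at 1.75 against 17.1 TPM, the phospholipase Pla2g2d at 2.09 against 19 TPM and Npy, neuropeptide Y, at 7.47 against 64.4 TPM. C1s2 at 1.42 against 10.1 TPM, Retnlg at 10.9 against 69 TPM, the claudin Cldn2 at 1.06 against 6.72 TPM and the mucin Muc13 at 1.32 against 7.48 TPM completed the group.

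Higher in vehicle 2 were the protease inhibitors Mug1, given above, and A2m, at 31.4, 256 and 48.5 TPM, the nucleotide sugar receptor P2ry14 at 23.1, 132 and 22.6 TPM and the collagen Col6a6 at 2.93, 24.7 and 5.52 TPM. In these the pool resembled vehicle 3. The fat cell genes Retn, resistin, at 29.6, 14.9 and 2.63 TPM, Cidec at 20.9, 14.8 and 3.26 TPM, Adipoq and Plin1 were highest in the pool, and Pck1, an enzyme of gluconeogenesis and fat, was at 3.55, 9.17 and 1.86 TPM. Cell cycle genes were also higher in vehicle 2. Mki67 was at 18.7, 36.7 and 17.4 TPM, Top2a at 64.5, 92.1 and 40.2 TPM and Pcna at 185, 202 and 146 TPM, and 17 of 18 members were higher in vehicle 2 than in vehicle 3 (49.6% of all genes), by a median of 0.81 on the log2 scale. The one exception was Cdkn1a, a cell cycle inhibitor, at 34.2 against 37.6 TPM. Of these 18 genes 4 were at least 2-fold higher in vehicle 2, where 1.62% of all genes were.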

How the data were processed

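RNA was measured in 6 libraries made with a stranded kit from 1 ug of total RNA, and the 3 vehicle libraries were analysed. The deposited values are raw counts per gene symbol (GRCm38.p3), which the authors obtained from STAR alignments by featureCounts (Subread 1.4.6-p4, reverse-stranded, exons summed), per the file headers. The submitters' processing notes name Trimmomatic 0.33, STAR 2.4.2a and edgeR 3.12.0. TPM was computed from counts and deposited exon length. Genes passing filterByExpr (minimum count 10, total 15) were TMM-scaled and tested with edgeR 4.0.16 (R 4.3.3), vehicle 1 against vehicle 2 and 3, with Benjamini-Hochberg adjustment. Log2 CPM used a prior count of 2. Named genes are all sex steroid receptors, detected other receptors, the 25 highest by TPM, each list's defining and 4 highest members as they bear on a result, and 10 per direction by fold. Lists and members were chosen with earlier results of these data known. The test was checked on simulated data. DESeq2 1.42.0, limma 3.58.1, other scalings, filters and left-out libraries were alternatives. Nothing says that libraries came from separate litters or cages, so spread may be partly technical. Values of some listed genes are not reported here.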

Additional observations from a re-analysis of the deposited data

How the results depend on the processing

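The count of genes that differed between the pooled and the single-animal libraries was 0 with TMM, RLE and upper quartile scaling, with a filter of 1 CPM in all 3 libraries, with limma-voom, at an adjusted p of 0.10, and with the spread taken from all 6 libraries (0 without vehicle replicate 2 and 0 without vehicle replicate 3 in that fit). It was 391 with DESeq2 and 677 with no filter beyond a count above 0, and the cause was not tested. At 1.5-fold in place of 2-fold, 1901, 966 and 721 genes had vehicle 1, 2 and 3 apart from both others, and at 4-fold 69, 31 and 18 did. With 1 CPM in all 3 libraries, vehicle 2 and 3 had 199 and 100 genes apart. The pairs 1 and 2, 1 and 3, and 2 and 3 had 3557, 3185 and 2004 genes at least 1.5-fold apart. Centring each gene on its exon length class, an alternative chosen after seeing the data, left 598, 297 and 158 genes apart for vehicle 1 to 3. The 50 most abundant genes took 11.1% of counts in place of 17% of TPM. Leaving out 1 of 3 libraries cannot move a mean by more than the SD of the 3, so that alternative could not move any list's share of TPM. Taking counts in place of TPM moved 23 of 37 lists. Of 33 list medians of the pool's difference, 7 changed sign in at least 1 added alternative, among them sex steroid receptors (from −0.03 to 0.11 without vehicle replicate 2). No sex steroid receptor changed the sign of its difference. No paired analysis was possible because the replicate numbers only name the libraries of 1 group and no second group was compared. Depth limits genes near the detection limit, and counting intervals cover counting error only.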
